A study of Homo sapiens with 10 samples.

Results

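CES1, CES2, CES3, CES4A, AADAC and NCEH1 encode serine hydrolases that cut ester bonds, and their messages were followed here in A549 cells, an established line from a human lung adenocarcinoma. The 6 genes were taken by name from the 33551 rows of the count table. CES1 was picked because its counts in these libraries differed between lines, chiefly between E292V and WT and between L101P and the other variant lines. The others were added as its relatives or as enzymes acting on the same kinds of ester.

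Carboxylesterases sit mostly in the lumen of the endoplasmic reticulum and split esters of drugs, fatty acids and cholesterol into an acid and an alcohol. CES1 is the main carboxylesterase of human liver and is also made in lung epithelium and macrophages, where it activates or clears ester drugs and acts on triacylglycerol and cholesteryl esters. A carboxylesterase of the mouse lung takes part in turning surfactant from its large into its small aggregates, and ABCA3, the gene under study in these cells, encodes the transporter that loads surfactant phospholipid into lamellar bodies. AADAC and NCEH1 belong to a separate branch of the same fold, are anchored in the endoplasmic reticulum membrane, and hydrolyse acetylated drugs and lipids (AADAC) or cholesteryl esters and acetylated ether lipids (NCEH1).

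RNA was sequenced from 5 A549 lines: WT, 3 lines labelled with the ABCA3 variants L101P, E292V and E690K, and KO, whose label is ABCA3 knockout. Of the 10 libraries, 1 per line came from untreated cells and 1 from cells given a VSV-G lentiviral vector with ABCA3:GFP overnight (multiplicity of infection, 20). Each genotype is 1 line, how the lines were made and whether each is a clone is not given in the sources used here, and 1 library per line and treatment means that nothing separates a genotype from the history of its line.

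The libraries held 59430095 to 96811421 counts. ABCA3 and the GFP row went against the labels of the KO pair: the library labelled KO untreated held 600 CPM (counts scaled to library size, with edgeR's TMM factors) of ABCA3 and 2842 GFP counts, and the library labelled KO transduced held 26.0 CPM and 4 counts. In the other 8 libraries ABCA3 lay between 356 and 1151 CPM, and GFP counts were present in untreated as well as transduced cells (60 to 12432). The tdTomato row, which no label mentions, held 236 to 756 counts in those 8 libraries and 0 in both KO libraries. The main results that rest on the KO pair are also given without it or with its treatment labels exchanged. KRT8 (3673 to 7945 CPM) and KRT18 (1587 to 3333 CPM) marked the cells as epithelial, whereas SFTPC, SFTPB, SFTPD, SFTPA1 and SFTPA2, which encode the surfactant proteins, held 0 to 36 counts and NKX2-1, a lung lineage factor, 0 to 16. Of the other alveolar type 2 markers read, NAPSA held 28 to 95 counts, LAMP3 18 to 54 and SLC34A2 0 to 6.

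The genes lie in 3 places (GENCODE 29, GRCh38). CES1 (ENSG00000198848.12) is at chr16:55802851-55833337 on the minus strand. CES2 (ENSG00000172831.11, chr16:66934444-66945096), CES3 (ENSG00000172828.12, chr16:66961237-66975148) and CES4A (ENSG00000172824.15, chr16:66988589-67009758) follow one another on the plus strand further along that chromosome, with starts 26.79 kb and 27.35 kb apart. AADAC (ENSG00000114771.13) is at chr3:151814037-151828488 on the plus strand and NCEH1 (ENSG00000144959.9) at chr3:172630249-172711218 on the minus strand. All are protein-coding genes.

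CES1 has a near copy that bears on how its reads can be assigned. The pseudogene CES1P1 (chr16:55760566-55793960) starts 72.77 kb from CES1, and 592 of the 1645 windows of 60 bases in the 1704-base CES1 coding sequence (36%) occur unchanged in CES1P1. The 2 stretches below are numbered from the first base of the CES1 start codon and read from the GENCODE 29 transcripts. They show where a single read of just these bases cannot and can be placed. The first is identical in both genes, and in the second capitals mark the 3 bases that differ.
CES1, coding bases 319 to 378: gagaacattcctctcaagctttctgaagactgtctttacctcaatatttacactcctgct
CES1P1, the same stretch: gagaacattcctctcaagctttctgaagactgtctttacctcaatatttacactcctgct
CES1, coding bases 35 to 94: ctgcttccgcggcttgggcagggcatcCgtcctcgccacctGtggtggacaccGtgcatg
CES1P1, the same stretch: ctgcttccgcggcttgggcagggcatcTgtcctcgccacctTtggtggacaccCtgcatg
Of the 50-base words in CES1 transcripts, 29.5% also occur in CES1P1, so CES1 counts can miss or include reads of the pseudogene, depending on how shared reads were counted. CES1P1 has no row in the deposited counts, so it could not be analysed here. The shares of 50-base words found in any other gene were 29.8% for CES1, 12.3% for CES4A, 9.01% for CES2, 1.68% for CES3, 0.0618% for AADAC and 0% for NCEH1. CES2 and CES4A share theirs mostly with genes that overlap them on the opposite strand, and whether strand was used in counting is not given in the sources used here.

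NCEH1 and CES4A stood at opposite ends when level was set against exon length. The median over the 10 libraries was 15.3 CPM per kb of exon for NCEH1, 7.28 for AADAC and 7.26 for CES2. It was 0.628 for CES1, 0.573 for CES3 and 0.0221 for CES4A. Every NCEH1 value (lowest 10.5 CPM per kb) was above every AADAC value (highest 8.16) and every CES2 value (highest 7.79), while AADAC and CES2 overlapped. CES1 ran from within the CES4A range to above every CES3 value (highest 0.691), so its place in the order depended on the line.

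**Figure D1:**
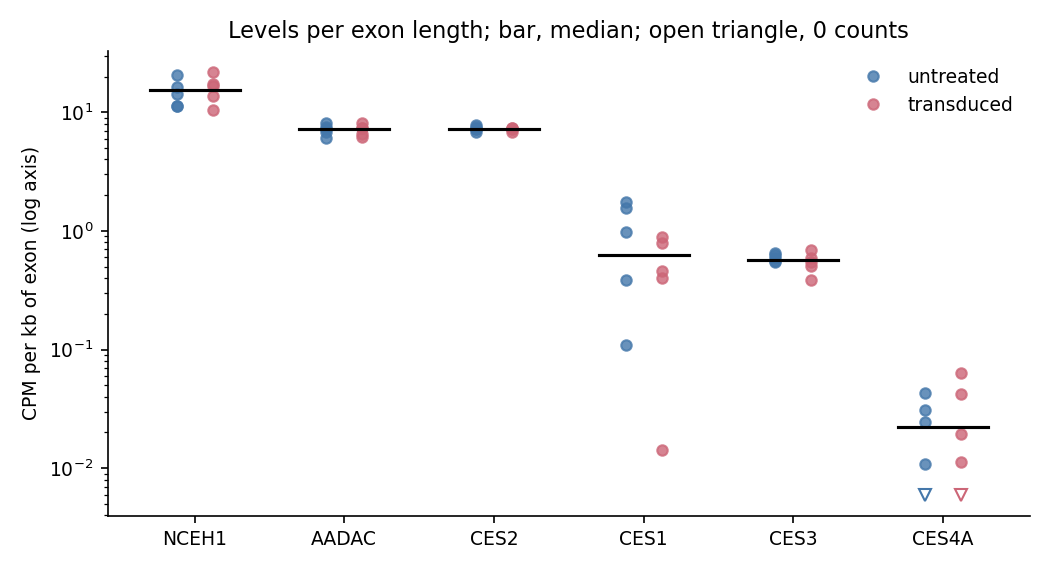
Level of each gene in CPM per kb of exon on a log axis, 1 point per library (blue, untreated; red, transduced), with a bar at the median and open triangles for the CES4A libraries with 0 counts. NCEH1, AADAC and CES2 form tight groups with medians of 15.3, 7.28 and 7.26, while CES1 is spread from 0.0142 to 1.75.

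CES1 varied most among the members with counts in every library, and E292V held the least of it. Its highest library held 123 times as much CPM as its lowest, which rests on 4 counts, and 16.0 times as much as the next lowest. In untreated cells CES1 was at 2.88 CPM in WT (95% Wilson interval 2.42 to 3.44), 5.13 in L101P (4.38 to 6.01), 1.12 in E690K (0.831 to 1.52), 0.321 in E292V (0.187 to 0.549) and 4.56 in KO (3.93 to 5.30). In transduced cells it was at 2.33 CPM in WT (1.91 to 2.85), 1.36 in L101P (1.07 to 1.74), 1.18 in E690K (0.884 to 1.58), 0.0416 in E292V (0.0114 to 0.152) and 2.63 in KO (2.18 to 3.18). These intervals take 2 counts as 1 read pair, since 81.4% of table values from 1 to 10 were even against 51.5% of those above 1000, and they cover counting error only. Both E292V libraries lay below the other 8, and their intervals met none of theirs. CES1 was picked for differences between these lines, so this separation and the overlaps in the next paragraph describe the counts and test nothing.

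The order of the lines in untreated cells was L101P, KO, WT, E690K and E292V, and only L101P and KO, the highest neighbours, had overlapping intervals. In transduced cells the order was KO, WT, L101P, E690K and E292V, with KO overlapping WT and L101P overlapping E690K. With the treatment labels of the KO pair exchanged, KO lies between WT and E690K in untreated cells and overlaps WT, and in transduced cells it is the highest, with an interval above that of WT. Without KO, L101P was the highest of the untreated lines and came after WT in transduced cells. The depth behind these values is small: the E292V libraries held 26 and 4 CES1 counts, the E690K libraries 84 and 90, and the remaining libraries 128 to 342.

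**Figure D2:**
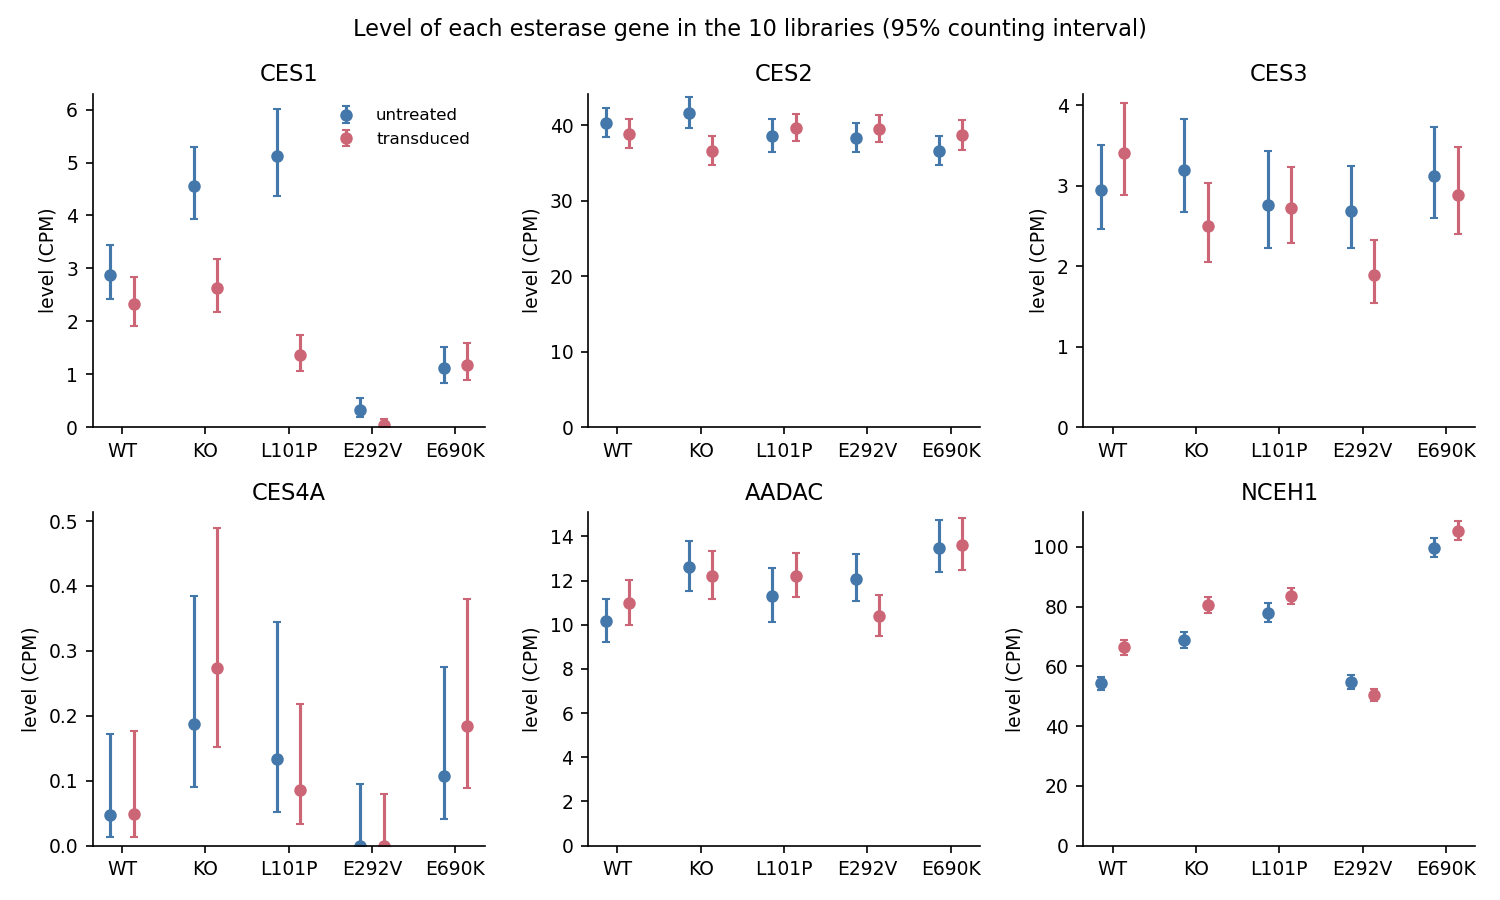
Level of the 6 genes in CPM (linear axes from 0) by line, untreated in blue and transduced in red, with 95% counting intervals that do not include variation between cultures. CES1 runs from 0.0416 CPM in transduced E292V to 5.13 CPM in untreated L101P, CES2 stays between 36.6 and 41.6 CPM, and both NCEH1 libraries of E690K lie above all the others.

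Because CES1 was chosen from these line contrasts, its differences between lines are given without a test. Relative to WT, untreated cells held 0.111 times as much CES1 in E292V, 0.390 times in E690K, 1.58 times in KO and 1.78 times in L101P. Transduced cells held 0.0179 times as much in E292V, 0.507 times in E690K, 1.13 times in KO and 0.584 times in L101P. The E292V and E690K lines were below WT in both treatments, whereas L101P lay above WT untreated and below it transduced. KO was above WT in both treatments as labelled, but with its treatment labels exchanged it held 0.913 times the WT level untreated and 1.96 times transduced. In the additive edgeR fit of line and vector over all 10 libraries, the log2 fold change against WT was -4.05 (SE 0.56) in E292V, -1.14 (SE 0.46) in E690K, 0.39 (SE 0.44) in KO and 0.09 (SE 0.45) in L101P. Without the KO pair the E292V value was -4.08 and the E690K value -1.12. In bulk RNA, fewer cells making CES1 and less CES1 message per cell cannot be told apart.

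Transduced libraries held less CES1 than their untreated partners in 4 of 5 lines (3 of 4 without KO, and 3 of 5 with the KO treatment labels exchanged), a difference that did not pass the test across all genes. The ratio of transduced to untreated CPM was 0.808 in WT, 0.265 in L101P, 1.05 in E690K, 0.130 in E292V and 0.578 in KO, where it becomes 1.73 with the labels exchanged. The intervals of the partners were apart in KO, L101P and E292V, and overlapped in WT and E690K. With line as a block, edgeR put the CES1 log2 fold change at -0.93 (SE 0.31, unadjusted p = 0.0102, adjusted p = 0.506). No gene of the 17978 tested passed at an adjusted p of 0.05 in this comparison (0% called; edgeR found 1236 genes at an unadjusted p under 0.05, and DESeq2 called 113). The CES1 adjusted p ran from 0.0111 to 1.00 over 11 alternatives and passed only without a filter on low counts. Its log2 fold change was -0.99 without the KO pair, -0.62 without the L101P pair and -0.56 with the treatment labels of the KO pair exchanged.

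**Figure D3:**
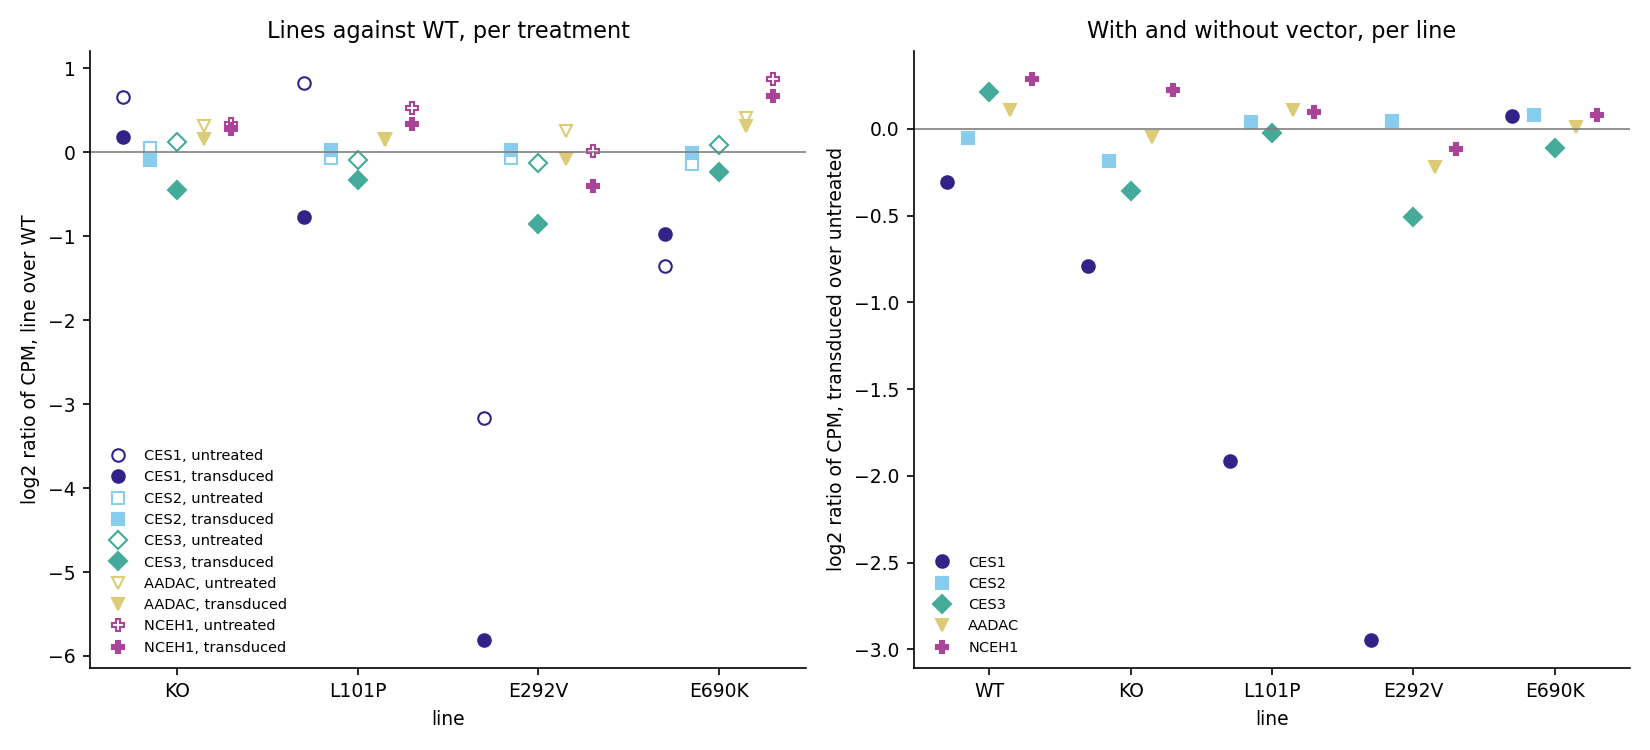
Log2 ratios of CPM for CES1, CES2, CES3, AADAC and NCEH1: lines over WT within each treatment (left; open, untreated; filled, transduced) and transduced over untreated within each line (right). CES4A is left out because 2 of its libraries hold 0 counts. CES1 in E292V is the lowest point in both panels, while CES2 stays close to 0 throughout.

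None of the other members passed the vector test either, and no difference between members was tested. GFP is part of the vector, but its row also held counts in untreated libraries, and it differed unevenly between the labels. Its ratio of transduced to untreated CPM was 36.7 for L101P, 3.27 for E292V, 2.16 for WT, 1.12 for E690K and 0.00131 for KO. The ABCA3 ratios ran from 0.0433 (KO) to 1.69 (WT). The intervals given here, that of CES1 included, therefore compare labels and do not bound an effect of the vector itself. The edgeR log2 fold change for transduced over untreated was -0.02 (SE 0.06, adjusted p = 0.988) for CES2, which activates irinotecan and other prodrugs with small acyl groups. For CES3, a low-abundance carboxylesterase of liver and gut, it was -0.15 (SE 0.15, adjusted p = 0.916), and CES3 was lower in the transduced library in 4 of 5 lines (3 of 4 without KO). For CES4A it was 0.20 (SE 0.82, adjusted p = 0.988), for AADAC -0.01 (SE 0.08, adjusted p = 0.996) and for NCEH1 0.12 (SE 0.06, adjusted p = 0.774), all by edgeR. The 95% intervals of the log2 change were -0.14 to 0.11 for CES2, -0.47 to 0.17 for CES3, -0.18 to 0.17 for AADAC and -0.01 to 0.24 for NCEH1, against -1.59 to -0.26 for CES1, and that of CES4A, -1.59 to 2.00, was too wide to bound a change.

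CES2, the most even of the 6 genes, held nearly the same level in every library. In untreated cells it was at 40.3 CPM in WT, 38.6 in L101P, 36.6 in E690K, 38.3 in E292V and 41.6 in KO. In transduced cells it was at 38.9 CPM in WT, 39.6 in L101P, 38.7 in E690K, 39.5 in E292V and 36.6 in KO. Its highest library was 1.14 times its lowest, on 2303 to 3798 counts each. None of the line contrasts tested for CES2 passed (edgeR adjusted p = 0.956 in KO, 0.951 in L101P and 0.747 in E690K), and in E292V its log2 fold change was -0.02 (SE 0.09), given without a test. CES2 was thus level in the same libraries in which CES1 differed most.

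CES3 sat near the CES1 level of WT but varied far less. Untreated cells held 2.94 CPM in WT, 2.76 in L101P, 3.12 in E690K, 2.69 in E292V and 3.20 in KO. Transduced cells held 3.41 CPM in WT, 2.72 in L101P, 2.89 in E690K, 1.89 in E292V and 2.50 in KO. The transduced E292V library was the lowest, and its interval (1.54 to 2.33) overlapped those of the untreated E292V and L101P libraries and of the L101P and KO transduced libraries. By edgeR the adjusted p was 0.818 in KO, 0.692 in L101P and 0.898 in E690K, and the untested log2 fold change in E292V was -0.49 (SE 0.23).

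CES4A was barely detected. It held 4 counts in each WT library, 14 and 22 in KO (untreated first), 8 and 8 in L101P, 0 and 0 in E292V, and 8 and 14 in E690K. The 0 counts allowed up to 0.0948 CPM in untreated and 0.0800 CPM in transduced E292V (upper bound of the 95% Wilson interval), which overlaps the intervals of both WT libraries, so a difference between E292V and WT was not detectable at this depth. All 6 members passed the filter on low counts, CES4A only through the libraries where it was highest, so its line differences are given as counts with no test.

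NCEH1, the neutral cholesterol ester hydrolase known from macrophage foam cells, was the member whose line differences passed the test. In untreated cells it was at 54.3 CPM in WT, 78.0 in L101P, 99.6 in E690K, 54.7 in E292V and 68.8 in KO. In transduced cells it was at 66.4 CPM in WT, 83.6 in L101P, 105 in E690K, 50.4 in E292V and 80.4 in KO. Both E690K libraries were above all others, both L101P and both KO libraries were above both WT libraries, and the E292V libraries lay within the interval of the lower WT library (untreated) or below it (transduced). In line means the order was E690K, L101P, KO, WT and E292V, and the 2 libraries of L101P overlapped those of KO, as those of WT overlapped those of E292V.

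NCEH1 rose 1.70-fold in E690K (0.77 on the log2 scale, SE 0.09; edgeR adjusted p = 6.3e-04) and was higher than WT in 2 of 2 treatments. It was the 1 member called there of the 4 tested between lines (CES2, CES3, AADAC and NCEH1), where 5.38% of all genes were. In L101P it rose by 0.42 (SE 0.09, edgeR adjusted p = 0.0280), 1.34-fold and again in 2 of 2 treatments, and was the 1 member called against a background of 3.94%. In KO its log2 fold change was 0.31 (SE 0.09), with an edgeR adjusted p of 0.137, and 0 of the 4 tested members were called, against 1.8% of all genes. The E292V line, in which 1.05% of genes were called, had an untested NCEH1 log2 fold change of -0.19 (SE 0.09). All members were chosen with earlier results of these data known, so these p-values are not independent of that choice.

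The E690K difference of NCEH1 passed under all 9 alternatives, with edgeR or DESeq2 adjusted p from 2.5e-11 to 0.00519. The L101P call passed under 7 of 9, and was lost without the E690K pair (adjusted p = 0.0662) and with the treatment labels of the KO pair exchanged (0.0782), both by edgeR. The KO difference, not called, passed when low-count genes were kept (adjusted p = 0.0360) and when the L101P pair was left out (0.0371), both by edgeR. All 4 line contrasts share the WT libraries.

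AADAC, the arylacetamide deacetylase that hydrolyses phenacetin and rifamycins in liver, moved over a narrow range. It was at 10.2 CPM in WT, 11.3 in L101P, 13.5 in E690K, 12.1 in E292V and 12.6 in KO in the libraries labelled untreated. Libraries labelled transduced held 10.97 CPM of AADAC in WT, 12.2 in L101P, 13.6 in E690K, 10.4 in E292V and 12.2 in KO. The E690K libraries were the highest, with intervals that met those of KO, L101P and untreated E292V. The WT and E292V libraries overlapped. The edgeR log2 fold change in E690K was 0.36 (SE 0.13, 95% interval 0.08 to 0.63, unadjusted p = 0.0148, adjusted p = 0.136), higher in 2 of 2 treatments but not past the threshold under any of 9 alternatives (adjusted p 0.0614 to 0.190). In KO it was 0.23 (SE 0.13, edgeR adjusted p = 0.455), in L101P 0.15 (SE 0.13, edgeR adjusted p = 0.582), and in E292V 0.09 (SE 0.13), untested.

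AADAC and NCEH1 had the closest profiles of any pair of members over the 10 libraries, with a Pearson correlation of log2(CPM + 0.5) of 0.81. The 10 points are 2 libraries from each of 5 lines, so this is a description without a test. CES1 correlated with CES3 and with CES4A at 0.61, with NCEH1 at 0.28, with CES2 at 0.19 and with AADAC at 0.02, and with ABCA3 at -0.30. CES4A held only 0 to 22 counts per library, so its correlations here and below rest on few reads. Over the 8 libraries outside the KO pair, AADAC and NCEH1 correlated at 0.85, below CES4A and NCEH1 at 0.90, and CES1 with CES3 at 0.65, with CES4A at 0.55, with NCEH1 at 0.31, with CES2 at 0.08, with AADAC at -0.11 and with ABCA3 at -0.34. CCAAT motifs were found by letter search in the RefSeq windows (GRCh38.p14, 250 bases before the start) of both AADAC and NCEH1, on the strand opposite to the gene, 224 and 44 bases before the start. The 30-base surroundings are shown because these were the only matches of the letters searched in either window, and capitals mark the motif, written on the gene's own strand.
AADAC, chr3:151813880-151813909, plus strand: tacatgctgtttATTGGaatacagataaca
NCEH1, chr3:172711094-172711123, minus strand: acgcagcctctgATTGGctcctgggcttat
The NCEH1 stretch lies partly or wholly in the first exon of longer GENCODE 29 transcripts, and the AADAC stretch before the annotated gene. Of 35116 windows of this length, 32% held CCAAT on either strand. The other letters searched on both strands were TGACNNNGC, an antioxidant response element (in 10.9% of windows), GGGCGG, a GC box (42.6%), TATAAA (10.7%) and GTTAAT, an HNF1 core (6.23%). The windows of CES2 and CES4A were searched too, and the only match was a GC box in CES4A. CES1 and CES3 had no window to search.

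AXIN2, PLEKHG6 and TRIM21 had the profiles most like CES1 among the 12961 tested genes that averaged 1 CPM or more. Their Pearson correlations with CES1 over the 10 libraries were 0.972, 0.953 and 0.949. AXIN2, a scaffold and feedback inhibitor of Wnt signalling, lay between 9.73 CPM in transduced E292V and 14.7 CPM in untreated L101P, which were also the ends of the CES1 range. PLEKHG6 ran from 2.13 CPM in transduced E292V to 7.84 CPM in untreated KO. TRIM21, a cytosolic antibody receptor and ubiquitin ligase, ran from 13.2 to 17.4 CPM in the same 2 libraries.

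OXSR1, AGO4 and SEMA4C had the most opposite profiles, at -0.937, -0.935 and -0.925. OXSR1, a kinase acting on cation chloride cotransporters, was at 78.4 and 81.6 CPM in E292V and at 70.5 to 76.4 CPM elsewhere. AGO4, an Argonaute protein, was at 13.4 and 13.96 CPM in E292V and at 9.45 to 11.9 CPM elsewhere, and SEMA4C, a semaphorin, at 25.1 and 28.0 CPM against 19.5 to 22.5 CPM. Over the 8 libraries outside E292V, the 6 correlations were 0.927, 0.884, 0.920, -0.837, -0.814 and -0.767, in the order named, and over the 8 outside KO they were 0.995, 0.941, 0.949, -0.938, -0.934 and -0.915. In all, 21 genes lay above 0.9 and 11 below -0.9, in a search over many genes and few libraries.

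Among 21 tested genes of neutral lipid hydrolysis (lipases, their cofactors and inhibitors, 22 listed), MGLL stood out. This list and those below were drawn up with earlier results known, so their p-values are not independent of that choice. MGLL, the monoacylglycerol lipase that frees fatty acid and glycerol in the last step of fat breakdown, was at 102, 161, 175, 78.1 and 179 CPM in untreated WT, KO, L101P, E292V and E690K, and at 99.7, 184, 238, 72.9 and 198 CPM in transduced cells of the same lines. All libraries of KO, L101P and E690K were above both WT libraries, and both E292V libraries were below them. MGLL rose in KO (log2 fold change 0.77, edgeR adjusted p = 0.00464), L101P (1.02, adjusted p = 8.6e-04) and E690K (0.90, adjusted p = 5.9e-04), each under 9 of 9 alternatives.

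HILPDA, an inhibitor of adipose triglyceride lipase, fell in L101P by 0.48 on the log2 scale (edgeR adjusted p = 0.0264) and in E690K by 0.70 (adjusted p = 0.00263). The L101P call was lost with the treatment labels of the KO pair exchanged (edgeR adjusted p = 0.0991). DAGLB, a diacylglycerol lipase, rose in E690K by 0.51 (edgeR adjusted p = 0.0120), and ABHD6, which like MGLL hydrolyses monoacylglycerol, fell there by 0.41 (edgeR adjusted p = 0.0479), a call that 3 of 9 alternatives kept. Of the list, 1 gene was higher and 0 lower in KO (1.8% of all genes called), 1 and 1 in L101P (3.94%), 0 and 0 in E292V (1.05%) and 2 and 2 in E690K (5.38%), with medians of 0.05, 0.08, -0.07 and 0.01, against medians over all genes tested of -0.01, -0.01, -0.00 and -0.02. MGLL was thus called in the same 2 lines as NCEH1 and in KO, all in comparisons that share the WT libraries.

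Of 26 tested genes of ester synthesis and lipid droplets (29 listed), 1 was higher in KO, 2 in L101P and 2 in E690K, and 1 was lower in E292V, against 1.8%, 3.94%, 5.38% and 1.05% of all genes called in either direction, and medians were 0.15, 0.09, 0.14 and -0.00 in that order. CIDEC, a droplet protein that drives droplet fusion, was at 2.07 and 2.57 CPM in WT (untreated first), 3.52 and 6.91 in L101P and 0.827 and 0.843 in E292V. It rose in L101P (log2 fold change 1.12, edgeR adjusted p = 0.0286) and fell in E292V by 1.46 (edgeR adjusted p = 0.0211). GPAT3, which starts glycerolipid synthesis, rose in KO (0.40, edgeR adjusted p = 0.0497) and E690K (0.46, adjusted p = 0.0124). AGPAT2, the next acyltransferase, rose in L101P (0.41, edgeR adjusted p = 0.0267), and PLIN3, a droplet coat protein, in E690K (0.38, edgeR adjusted p = 0.0208). Leaving out the E690K pair or exchanging the KO treatment labels ended the calls for GPAT3 in KO, AGPAT2 in L101P and CIDEC in both lines, and leaving out the KO pair ended those for AGPAT2 in L101P and CIDEC in E292V. The highest edgeR adjusted p over these alternatives was 0.0995 for GPAT3 in KO, 0.0599 for AGPAT2, 0.108 for CIDEC in L101P and 0.118 for CIDEC in E292V. In E690K the list had 6 calls without the L101P pair, 5 by DESeq2 and 7 without a filter on low counts.

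**Figure D4:**
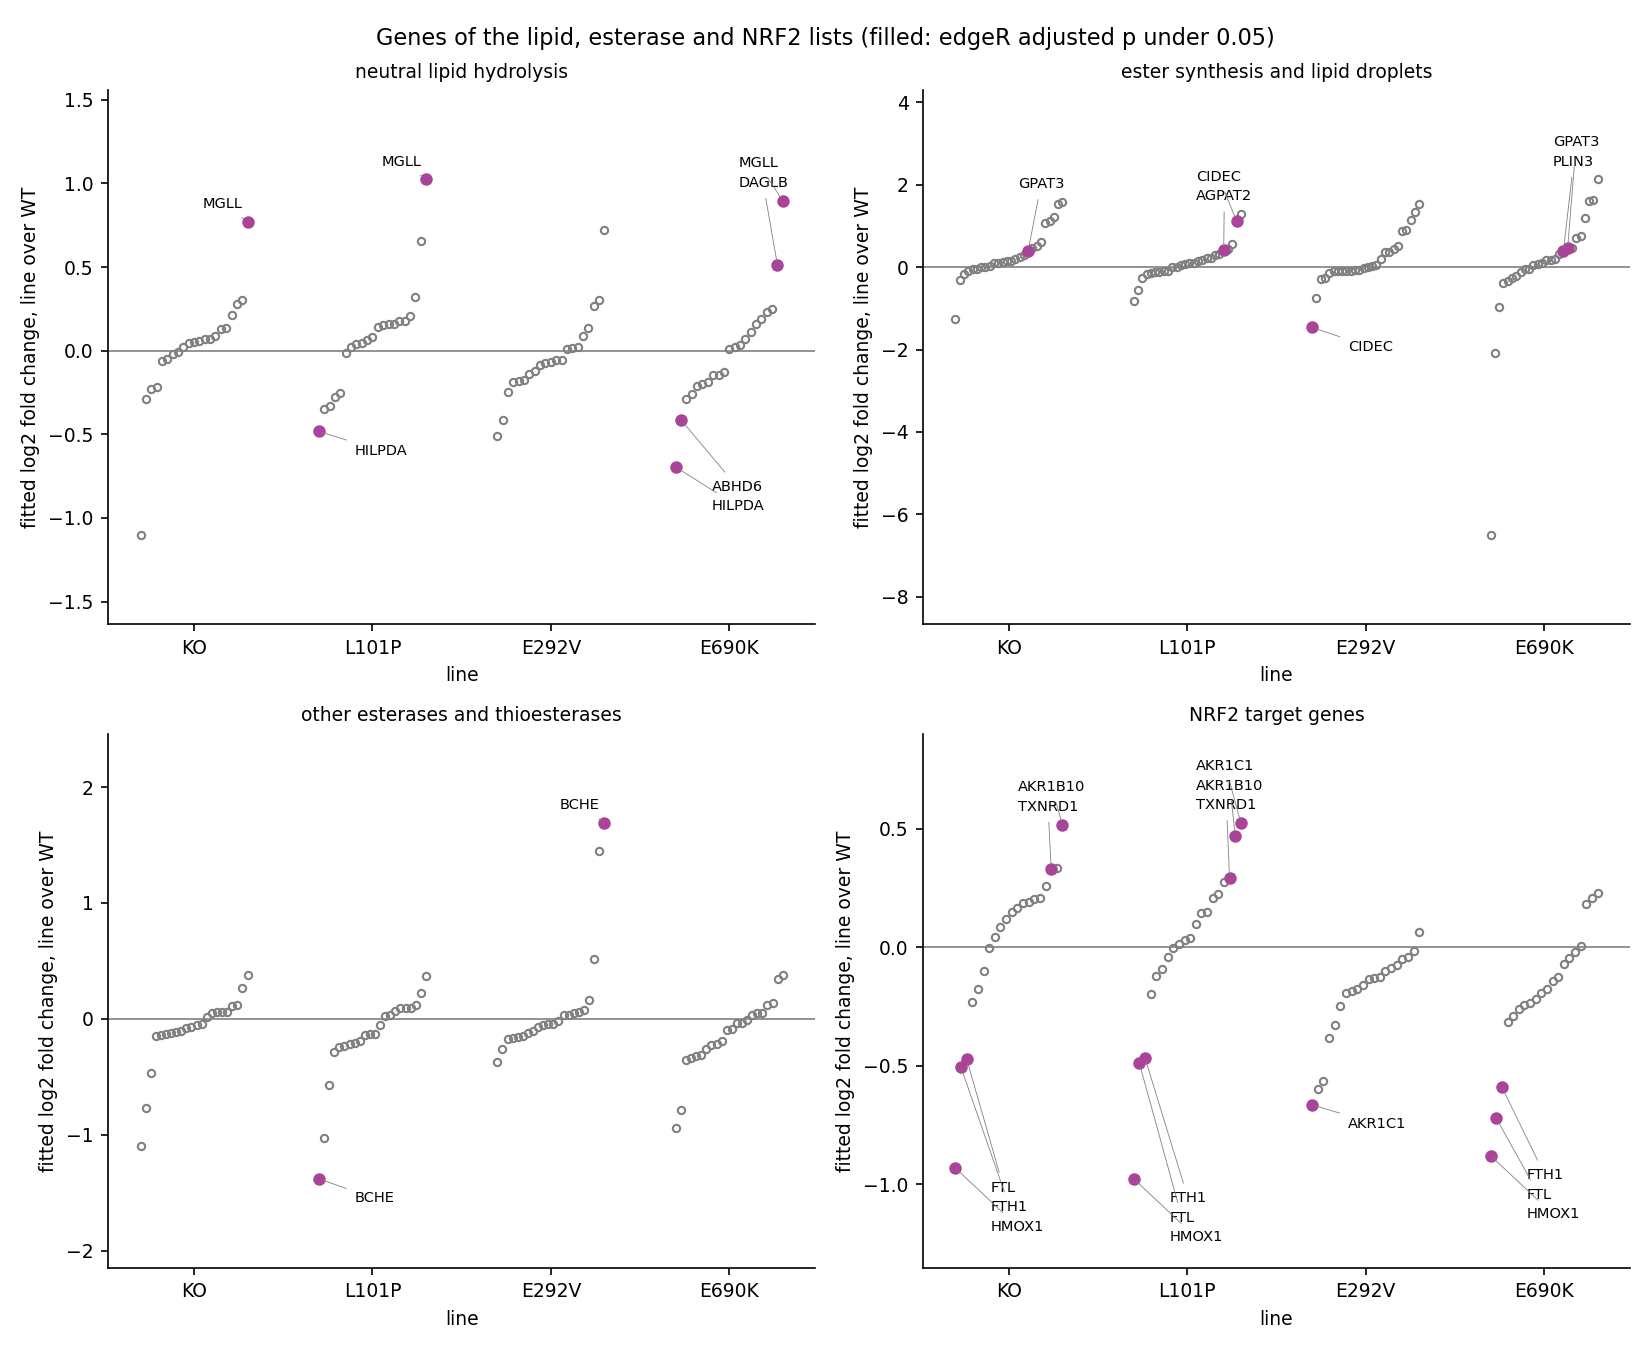
Fitted log2 fold change against WT (vertical axis, scales differ between panels) of every tested gene in 4 gene lists, ordered by size within each line; filled points passed an edgeR adjusted p of 0.05 and are named. MGLL is filled in KO, L101P and E690K, and the lowest point in the E690K column of the second panel is HSD17B13, a gene with 0 counts in both E690K libraries, which was not called.

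Other esterases and thioesterases, 22 genes all tested, were called once in L101P and once in E292V (3.94% and 1.05% of all genes called), and both calls were BCHE, the plasma butyrylcholinesterase. BCHE was at 1.19 and 1.38 CPM in WT (untreated first), 0.667 and 0.845 in KO, 0.570 and 0.425 in L101P, 4.17 and 4.13 in E292V, and 1.24 and 1.26 in E690K. BCHE rose in E292V (log2 fold change 1.69, edgeR adjusted p = 0.0154) and fell in L101P by 1.38 (edgeR adjusted p = 0.0286), and both calls were lost without the E690K pair (edgeR adjusted p = 0.0520 and 0.0580), that in L101P also without the E292V pair (0.0887). E292V, the line with the least CES1, thus held the most BCHE. The list's medians were -0.06, -0.13, -0.04 and -0.09 in KO, L101P, E292V and E690K.

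NRF2 is a transcription factor that induces detoxifying enzymes, among them CES1 in liver cells, and A549 cells carry a KEAP1 mutation that leaves it active. Of its 20 listed targets, all tested, 2 were higher and 3 lower in KO, 3 and 3 in L101P, 0 and 1 in E292V, and 0 and 3 in E690K, where 1.8%, 3.94%, 1.05% and 5.38% of all genes were called. The medians were 0.13, 0.04, -0.15 and -0.18. HMOX1, which breaks down haem, was at 391 and 382 CPM in WT and fell in KO by 0.93, in L101P by 0.98 and in E690K by 0.88 on the log2 scale (edgeR adjusted p = 0.0354, 0.0179 and 0.0232). These HMOX1 calls were kept by 6 of 9 alternatives in KO, 9 of 9 in L101P and 8 of 9 in E690K. The DESeq2 Wald test lost those in KO and E690K. The ferritin chains FTL and FTH1 were the other genes lower in those 3 lines, and the genes higher were TXNRD1 and AKR1B10 in KO and L101P and AKR1C1 in L101P. In E292V the call was AKR1C1, an aldo-keto reductase, which fell by 0.66 (edgeR adjusted p = 0.0197; lost without the KO pair, 0.0519, and without the E690K pair, 0.0630). With the treatment labels of the KO pair exchanged, 0 targets were called in KO and 2 in L101P. Without the E690K pair, 1 was called in KO, 2 in L101P and 0 in E292V, and without the L101P pair 4 were called in E292V and 8 in E690K.

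No gene of these 4 lists passed the main edgeR test for the vector, as no gene tested did. Without a filter on low counts, 3 NRF2 targets and 1 lipid hydrolysis gene passed, and by DESeq2 2 and 1. Leaving out the L101P pair gave 1 NRF2 target. Main-fit list medians for the vector were 0.05 for lipid hydrolysis, 0.05 for ester synthesis and droplets, -0.03 for other esterases and -0.10 for NRF2 targets. The median over all genes was 0.00. Of the 6 further family genes listed, CES1P1 and AADACP1 have no row in the counts. CES5A, AADACL3 and AADACL4 held 0 counts in every library and AADACL2 at most 4, so none was tested.

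Genes near the members were read as well. Over all genes, 1.05% were called in E292V, 1.8% in KO, 3.94% in L101P and 5.38% in E690K. Of 4 tested genes whose starts lie within 500 kb of CES1, 0 were called in E292V and 1 each in KO, L101P and E690K. MMP2, a matrix metalloproteinase near the edge of that window, fell in KO by 2.47, in L101P by 1.97 and in E690K by 1.31 on the log2 scale (edgeR adjusted p = 0.00268, 0.00521 and 0.0229), with a log2 fold change of 1.15 in E292V (adjusted p = 0.0857). LPCAT2, a lysophospholipid acyltransferase, had a log2 fold change of -0.12 in E292V (edgeR adjusted p = 0.923). Of 34 tested genes around CES2 and CES3, 1 was called in E292V (RRAD, log2 fold change 1.203) and 1 in E690K (PLEKHG4, 0.66), both higher, where 1.05% and 5.38% of all genes were called. None of the 5 tested genes around AADAC was called in any line. NCEH1 had 2 tested neighbours, of which ECT2, a cytokinesis factor 39.5 kb away, rose in E690K by 0.31 (edgeR adjusted p = 0.0398). The 2 to 5 genes around CES1, AADAC and NCEH1 are too few to set against the shares over all genes.

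CES1 and AADAC are abundant in hepatocytes and CES1 and NCEH1 are active in macrophages, so markers of these and other cell types were read in every library. Of 7 macrophage and monocyte markers, CD163 was at 0 throughout and PTPRC held at most 10 counts, while CD68 was at 20.1 to 44.2 CPM and CD14 at 88 to 514 counts. The sum over that list ran from 23.0 to 50.7 CPM and was 23.0 and 26.3 CPM in E292V (untreated first). Of 8 hepatocyte markers, APOA2 was at 0 throughout and ALB held at most 20 counts, while HNF4A was at 62.7 to 128 CPM. The hepatocyte sum, almost all HNF4A, ran from 63.0 to 129 CPM and was 88.9 and 129 CPM in E292V. Transduced E292V, the library with the least CES1, also had the highest sum of the hepatocyte list, of the fibroblast list (118 CPM, with 73.5 in untreated E292V and 14.4 as the lowest library, almost all COL1A1) and of the alveolar type 1 list (648 CPM, with 423 in untreated E292V and 296 as the lowest, almost all CAV1, with PDPN at 0). It had the lowest sum of the 5 epithelial markers (5364 CPM, with 5879 in untreated E292V and 11797 as the highest, mostly KRT8 and KRT18). The endothelial list summed to 0.0971 to 1.12 CPM. The part of these marker differences in the CES1 difference was not tested.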

How the data were processed

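Total RNA of 10 A549 libraries was sequenced, per the labels' protocols. The authors deposited 1 table of whole-number counts per gene (33551 rows), unnormalised. The submitters' processing notes name featureCounts, Subread, edgeR, limma and GRCh38; how strand and shared reads were handled is not given in the sources used here. Of the row names, 98.7% matched GENCODE 29 symbols.

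The 6 members and all gene lists were chosen with earlier results of these data known. Counts were fitted in R 4.3.3 with edgeR 4.0.16 (filterByExpr, 17978 genes; TMM factors 0.972 to 1.03; glmQLFit and glmQLFTest) in 1 additive model of line and vector over all libraries, with 4 residual degrees of freedom and Benjamini-Hochberg adjustment over all genes tested (threshold 0.05). The biological coefficient of variation was 12.9%. The 2 libraries of a line were paired because they come from the same line. With 1 library per line and treatment, p-values measure spread around this additive model. CES1 and CES4A are given no test between lines, and no member is given one in E292V. SE is the log2 fold change over the square root of F. CPM used TMM-scaled library sizes, and intervals are 95% Wilson intervals on read pairs. Fits were checked on simulated data.

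Named list genes are those past the threshold, at most the 3 with the largest change per list and contrast. ABHD6 and the further called NRF2 targets were added to them. Lists covered family genes, neutral lipid hydrolysis, ester synthesis and lipid droplets, other esterases, NRF2 targets and cell type markers. Alternatives were DESeq2 1.42.0 (factors or Wald test), other filters, leaving out each pair, exchanged KO treatment labels, no replicate block, and, added after seeing the data, counts halved as read pairs likeness without E292V, and correlations and CES1 ratios without the KO pair or with its labels exchanged. Dixon's rule needs 4 to 10 samples and was applied to 18 sets, of which 0 exceeded its limit.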

Additional observations from a re-analysis of the deposited data

How the results depend on the processing

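Calls over all genes depended on the tool and on single lines. Without a filter on low counts, 237 genes passed for the vector, 1437 in L101P, 1659 in E690K, 662 in E292V and 982 in KO. DESeq2 called 113, 1236, 1464, 432 and 744 in the same order. With the treatment labels of the KO pair exchanged, 367 were called in L101P, 599 in E690K, 105 in E292V and 142 in KO. Leaving out 1 pair of libraries gave 0 to 133 for the vector, 367 to 732 in L101P, 639 to 1993 in E690K, 57 to 689 in E292V and 147 to 1120 in KO; the lowest came without the E690K pair in KO, L101P and E292V and without the KO pair in E690K, and the highest without the L101P pair in every comparison that could lose it. Fits with no replicate block, which ignore the pairing by line, called 0 genes for the vector. Of 272 refits of the members, 261 were unchanged, which means the same direction and side of the threshold. For CES1 between lines and for every member in E292V, unchanged means a shift smaller than the SE. The vector effect changed sign for CES2 (exchanged KO labels 0.059; without a pair -0.035 to 0.029), CES4A (exchanged -0.10) and AADAC (exchanged 0.012; without a pair -0.040 to 0.043), none of them called; the cause was not tested. Requiring 10 counts in every library removed CES1 and CES4A, so they have no value there. All 120 levels on other scalings stayed within their counting intervals. Depth limits CES4A and the E292V values of CES1. Leaving out the KO pair, chosen after seeing the data, turned the correlation of CES1 with AADAC (-0.11), of CES2 with CES3 (-0.32), and of ABCA3 with CES2 (-0.46), CES3 (-0.40), CES4A (0.25) and NCEH1 (0.37).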
